A study of Mus musculus with 32 samples.

Results

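The reads counted on 10 lymphocyte genes were followed across 32 mouse livers: 6 genes of T and NK cells (*Cd3e*, *Cd3g*, *Cd4*, *Cd8a*, *Lck* and *Nkg7*) and 4 genes of B cells (*Cd79a*, *Cd79b*, *Ms4a1* and *Ighm*). They were picked by name from the 54532 genes of the count table, and all 10 were present. The study asked whether SC-435, a drug that blocks bile acid uptake in the ileum, lessens the liver disease of mice without *Cyp2c70*, an enzyme that makes muricholic acids from other bile acids. Mice on a C57BL/6 background, killed at 12 weeks of age, formed 8 groups of 4: male or female, wild type (WT) or *Cyp2c70*-/- (KO), and fed chow or chow with SC-435. SC-435 was 0.006% of the chow, about 11 mg/kg/day, and per the labels was begun 3 weeks after weaning. The paper differs, with the diet begun at weaning, at 4 weeks of age, and fed for 8 weeks. The KO mice lacked *Cyp2c70* in all cells and descended from 1 founder with a CRISPR-Cas9 deletion that took out exon 2. All livers were flushed with saline before freezing, and all libraries were made from polyadenylated RNA of whole tissue.

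T cells recognize antigen through a receptor whose signals pass through the CD3 chains, which *Cd3e* and *Cd3g* encode in part, and then through the kinase made by *Lck*. CD4 and CD8 are the coreceptors of helper and cytotoxic T cells, and the NKG7 protein sits in the cytotoxic granules of NK cells and CD8 T cells. B cells carry membrane IgM (heavy chain from *Ighm*) joined to the signaling pair CD79A and CD79B, and most of them display CD20, the product of *Ms4a1*. Healthy liver holds many NK and T cells in its sinusoids, and portal tracts can fill with lymphocytes when bile ducts are injured. In whole liver RNA, fewer cells of a type and less RNA per cell cannot be told apart.

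Counts per library totaled between 36476021 and 44771350. *Cyp2c70* was between 109 and 188 CPM (reads scaled to a fixed library size) in the 16 KO mice and between 271 and 838 in the 16 WT mice, so each library matched its genotype label. The 8 hepatocyte genes checked (such as *Alb*) summed to at least 48900 CPM in every mouse. CPM here use TMM factors, a normalization between libraries. A single library, replicate 1 of the WT males on chow, stood apart, with a TMM factor of 0.622 against 0.911 to 1.26 in the other libraries, so comparisons of pairs of groups that use it are also given without it. The red cell genes of that library (hemoglobins among them) summed to 677 CPM against 22.6 to 198 CPM in the other mice.

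All 10 genes were read at low levels. Their median over the 32 mice ran from 9.5 counts for *Cd8a* to 238.5 counts for *Ighm*, and the other 8 genes lay between 12 counts (*Ms4a1*) and 48.5 counts (*Cd4*). The CPM of 3 counts was highest, at 0.117, in the library with the lowest TMM factor, replicate 1 of the WT males on chow. Per kilobase of gene length, *Ighm* had the highest mean level, 4.01 CPM per kb. *Nkg7* (0.551), *Cd79b* (0.519), *Cd79a* (0.388), *Lck* (0.333) and *Cd4* (0.332) followed on the same scale. *Cd3g* was at 0.111, and *Cd8a*, *Cd3e* (0.0911) and *Ms4a1* (0.0487) were lowest, so the B cell genes held both ends of the order.

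In GRCm38, *Cd8a* (ENSMUSG00000053977) runs from 71373427 to 71379173 on chromosome 6 and *Cd4* (ENSMUSG00000023274) from 124864692 to 124888221 on the same chromosome. *Cd79a* (ENSMUSG00000003379) runs from 24897381 to 24902197 on chromosome 7, and *Ighm* (ENSMUSG00000076617), annotated as an immunoglobulin constant gene, from 113418558 to 113422730 on chromosome 12. *Cd3e* and *Ms4a1* each overlap an annotated antisense gene, which had a mean of 0.281 and 0 counts. Whether the counting used strand is not given in the sources used here, so reads of such pairs cannot be told apart.

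The start regions of the genes were compared by sequence, because T and NK genes on one side and B cell genes on the other can share or differ in their control elements. RefSeq start regions of 300 bases on GRCm38.p6, from 250 bases before to 50 after the start, were found for 6 of the 10 genes. *Cd4*, *Cd79b*, *Ms4a1* and *Ighm* had none in the table used here. That left *Cd79a* alone for the B cell genes, too few to set them apart from T and NK genes. The *Cd8a* (chr6:71373177-71373476, plus strand), *Cd3e* (chr9:45009562-45009861, minus strand) and *Cd79a* (chr7:24897247-24897546, plus strand) regions are shown for a coreceptor gene and a B cell gene that were called in females (*Cd8a*, *Cd79a*) and for a CD3 chain. Capitals mark the ETS core AGGAAGT on either strand.
Cd8a: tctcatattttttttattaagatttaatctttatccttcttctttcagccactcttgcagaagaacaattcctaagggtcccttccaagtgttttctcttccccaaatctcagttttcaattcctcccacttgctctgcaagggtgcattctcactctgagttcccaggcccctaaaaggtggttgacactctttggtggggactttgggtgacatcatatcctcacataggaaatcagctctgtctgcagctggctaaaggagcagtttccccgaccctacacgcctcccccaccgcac
Cd3e: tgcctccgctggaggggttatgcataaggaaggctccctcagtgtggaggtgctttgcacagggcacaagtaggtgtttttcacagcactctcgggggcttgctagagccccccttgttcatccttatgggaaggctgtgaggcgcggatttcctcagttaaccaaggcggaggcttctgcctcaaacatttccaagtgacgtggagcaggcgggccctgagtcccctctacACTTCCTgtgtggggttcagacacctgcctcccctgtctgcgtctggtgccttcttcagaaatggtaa
Cd79a: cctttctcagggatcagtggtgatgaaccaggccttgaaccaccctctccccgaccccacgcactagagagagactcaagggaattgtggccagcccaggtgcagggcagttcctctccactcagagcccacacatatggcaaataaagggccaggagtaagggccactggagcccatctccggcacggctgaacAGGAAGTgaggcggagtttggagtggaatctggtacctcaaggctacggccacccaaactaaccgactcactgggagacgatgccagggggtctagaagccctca
The core was found 18 bases before the start in *Cd3e* and 55 bases before it in *Cd79a*. It was also found in both start regions of *Lck*, and so in 4 of the 7 regions of these genes, against 9.35% of 32851 RefSeq regions of the same length. It was not in the *Cd8a*, *Cd3g* or *Nkg7* regions. The octamer ATGCAAAT was in 0 of the 7 (1.74% of all regions), too few regions to read the absence of so rare a motif. TGTGGT, a RUNX core (16.8% of all regions), was in the *Nkg7* region and in the *Lck* region at chr4:129573592-129573891, but not in the other *Lck* region. All motifs were searched on both strands and were chosen after the sequences were seen. A match describes the letters only.

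**Figure D1:**
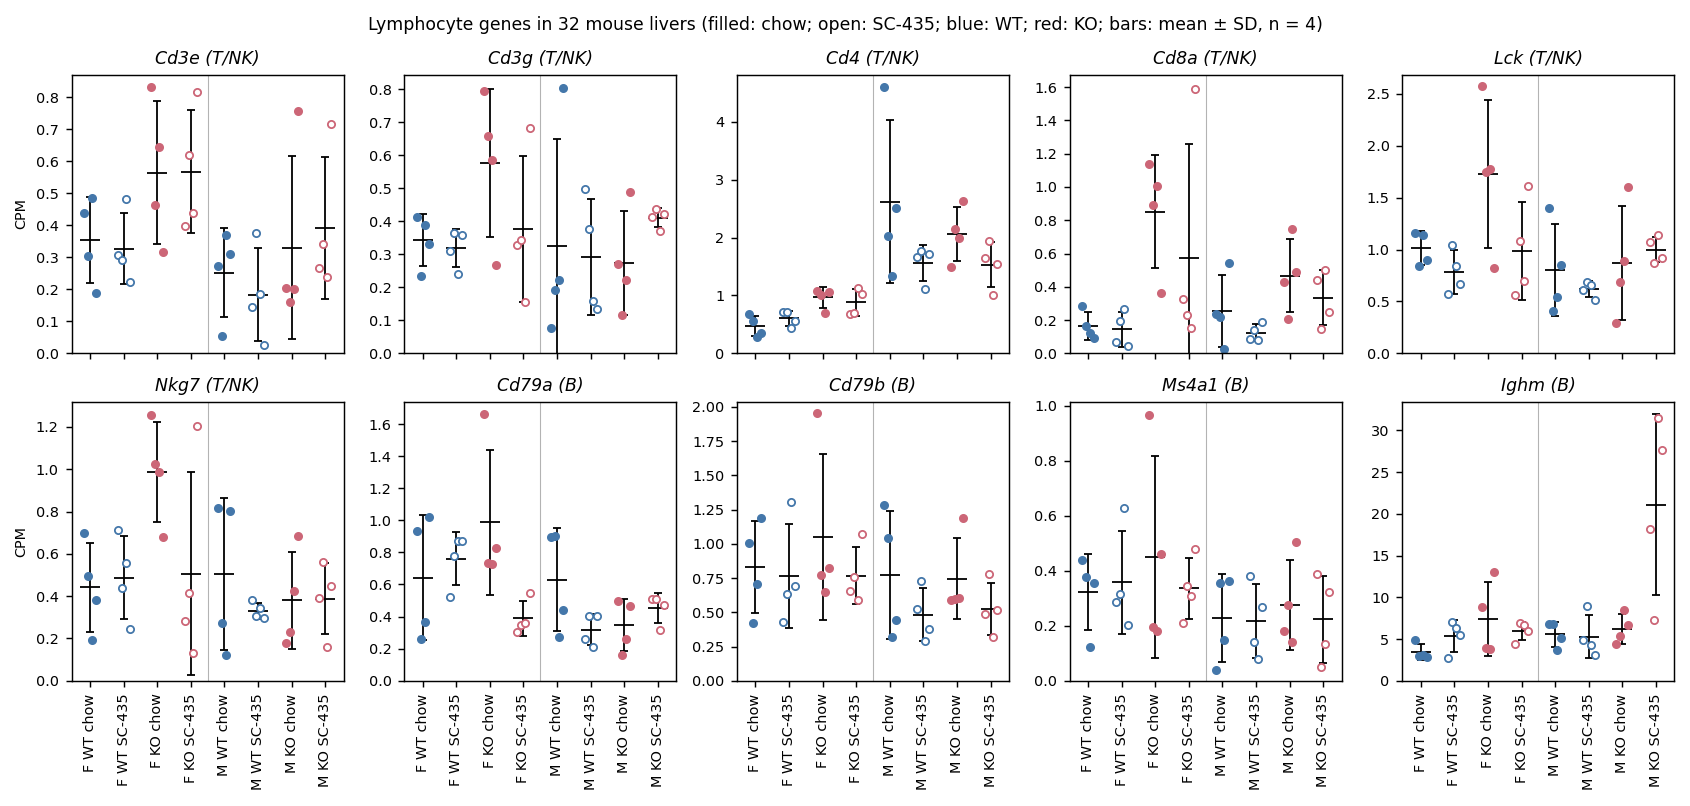
Level of each of the 10 genes in CPM (vertical axis, linear, a different range for each gene) by group, 1 point per mouse, with bars for the mean ± SD (n = 4) cut at 0. The mean of *Cd8a* was highest in female KO mice on chow, that of *Cd4* was higher in males than in females of each genotype and diet, and *Ighm* reached 31.5 CPM in male KO mice on SC-435.

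Female KO mice on chow had more *Cd8a* RNA than female WT mice on chow, the clearest difference among the 10 genes. The 4 KO mice had 59, 46, 50 and 15 *Cd8a* counts and the 4 WT mice had 11, 7, 5 and 4. Every KO mouse was above every WT mouse, though replicate 4 of the KO mice was close to the WT range. The means were 0.851 ± 0.340 CPM in KO and 0.166 ± 0.084 CPM in WT mice (SD, n = 4). The log2 fold change was 2.34 (standard error 0.45), and the adjusted p was 0.0085 (quasi-likelihood F test of edgeR, Benjamini-Hochberg correction, 16205 genes). Of the 6 T and NK genes *Cd8a* was the 1 that rose, and of the 4 B cell genes 0 changed, while 14.9% of all genes tested changed in this comparison and 9.83% rose. At an unadjusted p under 0.05, 4 T and NK genes and 1 B cell gene were counted. The count of 1 in these 10 genes is near that background. Which cells the *Cd8a* reads came from was not tested.

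The other T and NK genes had positive but uncalled differences in the same female comparison. *Nkg7* had 65, 53, 49 and 28 counts in KO mice and 27, 21, 8 and 16 in WT mice, with 1 count between the groups, and in CPM they overlapped (KO replicate 4 at 0.679 and WT replicate 1 at 0.698). Its log2 fold change was 1.16 (edgeR adjusted p = 0.0624, standard error 0.37). *Cd4* had 56, 52, 35 and 44 counts in KO mice against 26, 24, 12 and 15 in WT mice, with no overlap in counts or CPM. The *Cd4* log2 fold change was 1.03 (edgeR adjusted p = 0.0549, standard error 0.32). *Lck*, *Cd3g* and *Cd3e* gave log2 fold changes of 0.77, 0.75 and 0.67, with adjusted p between 0.133 and 0.281. Their groups overlapped, in each gene through replicate 4 of the KO mice, which had 34 *Lck*, 11 *Cd3g* and 13 *Cd3e* counts. The same mouse had the lowest *Cd8a* and *Nkg7* counts of its group.

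No B cell gene was called in that comparison, and single KO mice stood high. *Ighm* had 460, 204, 189 and 536 counts in KO mice and 188, 126, 129 and 122 in WT mice. In CPM the groups overlapped, with WT replicate 1 at 4.86 and KO replicates 2 and 3 at 3.95 and 3.81, and the log2 fold change was 1.09 (edgeR adjusted p = 0.087, standard error 0.39). *Cd79a* (0.61), *Ms4a1* (0.47) and *Cd79b* (0.33) had smaller log2 fold changes with adjusted p between 0.412 and 0.638, and their groups overlapped. Replicate 1 of the KO mice stood out, with 86 *Cd79a* counts against 34 to 38 in the others, 101 *Cd79b* counts against 32 to 40, and 50 *Ms4a1* counts against 9 to 19. The median log2 fold change was 0.90 over the 6 T and NK genes and 0.54 over the 4 B cell genes, beside -0.02 over all genes tested.

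Whether *Cd4*, *Nkg7* and *Ighm* passed the threshold in females depended on the method. With DESeq2 in place of edgeR, the adjusted p was 0.0235 for *Cd4*, 0.0226 for *Nkg7* and 0.0195 for *Ighm*. With library size alone as the scaling, all 3 passed as well. That scaling moved the median of all genes to 0.17, that of the T and NK genes to 1.10 and that of the B cell genes to 0.74, with all 10 genes positive as before, and the split over all genes went from 1593 higher and 818 lower to 2727 higher and 275 lower.

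More of the other leukocyte genes were called in the same females. All 8 pan-leukocyte genes rose, led by *Ptprc* (the common antigen CD45, log2 fold change 1.32), *Laptm5* (1.14) and *Cd53* (1.10), and 11 of 13 macrophage and monocyte genes rose, led by *Adgre1* (1.10), *Lyz2* (1.49) and *Cd68* (1.25). Summed over its 13 genes, the macrophage and monocyte list was between 670 and 966 CPM in female KO mice and between 401 and 477 CPM in female WT mice on chow. Hepatocyte genes went the other way, with 5 of 8 lower and 1 higher (3 lower with library size alone). The part of these cells in the lymphocyte values was not tested, and the 6 T and NK genes summed to 3.52 to 7.68 CPM in KO and 2.26 to 3.67 CPM in WT mice.

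The wider lymphocyte lists were read in the same comparison, in which 9.83% of all genes rose. Of 25 other T cell genes, 19 could be tested and 3 rose. These were *Cd28* (costimulation, log2 fold change 1.89), *Il7r* (the interleukin 7 receptor, 1.53) and *Il2rb* (a chain of the interleukin 2 and 15 receptors, 0.65). Of 16 NK and cytotoxicity genes, 10 could be tested and 3 rose, the activating receptor gene *Ncr1* (1.57), the chemokine gene *Ccl5* (1.73) and *Klrd1* (1.72), which encodes CD94. Of 20 other B cell genes, 18 could be tested and 6 rose, led by *Cd22*, an inhibitory coreceptor (1.61), *Ly6d* (6.30) and *Blnk*, a B cell receptor adaptor (1.90). Of 10 plasma cell genes, 6 could be tested and *Prdm1* rose (1.85), while *Igha* (1.495, adjusted p = 0.0789 from edgeR) and *Jchain* (0.88, adjusted p = 0.172 from edgeR) did not pass. Several of these genes are also used outside the lineage their list is named for: macrophages express *Blnk* and *Prdm1*, and epithelia express *Ly6d*. Among 14 tested genes that guide or sustain lymphocytes, *Cxcl9* (0.97), *Cxcl16* (0.91) and *Cxcl10* (1.05), ligands of CXCR3 and CXCR6, led the 6 that rose, and *Cxcl13*, the ligand of the B cell receptor CXCR5, was the 1 that fell (-0.94), a call that was lost with library size alone.

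**Figure D2:**
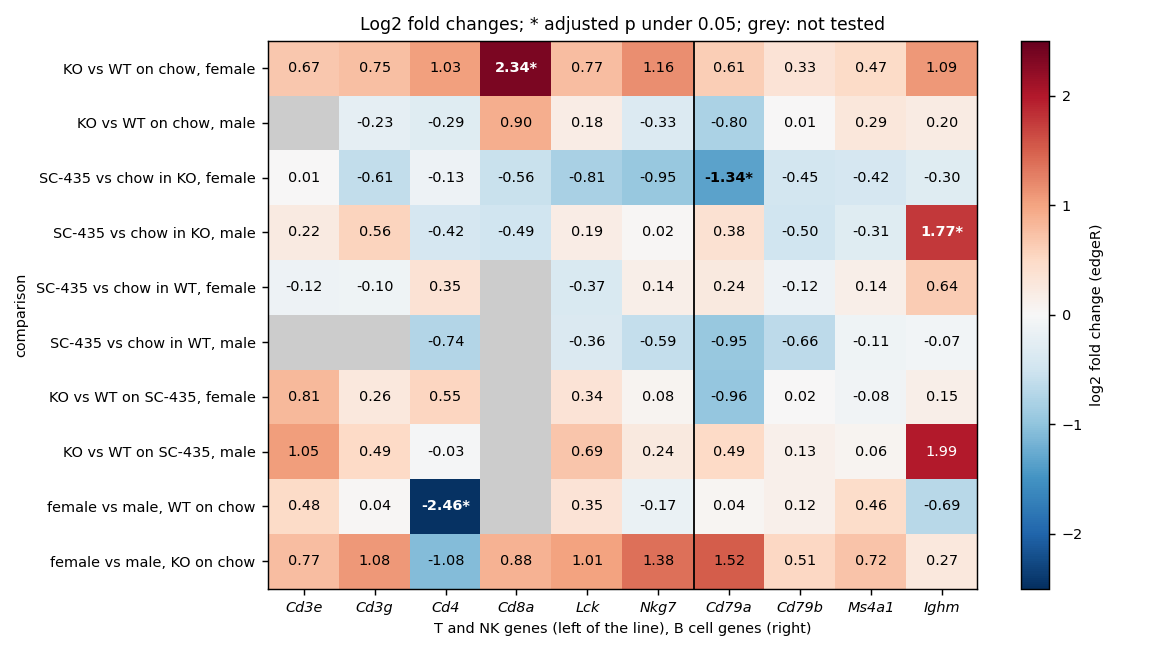
Log2 fold change of each gene (columns, T and NK genes left of the line and B cell genes right of it) in each of 10 comparisons between groups (rows), from edgeR. Red is higher and blue lower in the first-named group, grey was not tested, and asterisks mark the 4 values with an adjusted p under 0.05, each for a different gene and comparison.

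In males on chow, the same KO and WT comparison gave 0 calls among the 9 genes tested by edgeR, where 1.08% of all genes changed, and 0 members had an unadjusted p under 0.05. *Cd8a* had 19, 9, 37 and 27 counts in male KO mice and 6, 8, 1 and 21 in male WT mice, with a log2 fold change of 0.90 (edgeR adjusted p = 0.564, standard error 0.70). The groups overlapped. *Cd4* (-0.29), *Nkg7* (-0.33) and *Cd79a* (-0.80) had negative estimates, and *Cd3e* had too few reads for the filter. Median log2 fold changes were -0.23 over the 5 T and NK genes tested, with 2 of them positive, and 0.10 over the 4 B cell genes, beside 0.04 over all genes, but with library size alone the T and NK median was 0.09 with all 5 positive, beside 0.29 over all genes. DESeq2 also called 0 of these genes, and leaving out WT replicate 1 left 0 called while the calls over all genes went from 172 to 1196. Pan-leukocyte genes had a median log2 fold change of 1.06 in the same males with 0 of 8 called, and macrophage and monocyte genes 0.92 with 0 of 13 called. The difference between the sexes in the KO effect was tested as an interaction over 16 mice. It was 1.48 for *Cd8a* (edgeR adjusted p = 0.849, standard error 0.86), and 0 of the 10 genes were called against 0.0235% of all genes.

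SC-435 in female KO mice was followed by lower *Cd79a*, 1 of the signaling chains of the B cell receptor. The mice on chow had 86, 38, 36 and 34 counts and those on SC-435 had 13, 15, 14 and 24. Every mouse on SC-435 was below every mouse on chow. The means were 0.987 ± 0.453 CPM on chow and 0.389 ± 0.107 CPM on SC-435 (SD, n = 4), and the log2 fold change was -1.34 (edgeR adjusted p = 0.0281 over 16332 genes, standard error 0.35). It was the 1 of 4 B cell genes that fell and 0 of the 6 T and NK genes changed, where 17.8% of all genes changed (9.23% fell). With library size alone the median of all genes was -0.18 rather than -0.02, and the split over all genes went from 1398 higher and 1508 lower to 826 higher and 3202 lower. Its partner *Cd79b* had 101, 40, 32 and 34 counts on chow and 28, 33, 23 and 47 on SC-435, which overlap, with a log2 fold change of -0.45 (standard error 0.38). The *Cd79a* call depended on single mice. Without KO chow replicate 1, the mouse with 86 counts, the log2 fold change was -0.96 (adjusted p = 0.0602 from edgeR), and without SC-435 replicate 1, 2 or 3 the adjusted p was 0.0809, 0.0856 or 0.0759.

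*Cd8a* and *Nkg7* in female KO mice on SC-435 turned on 1 mouse. *Cd8a* had 14, 10, 6 and 70 counts and *Nkg7* 12, 18, 5 and 53, so that replicate 4 exceeded every female KO mouse on chow for *Cd8a* and the other 3 lay below all of them. With the 4 mice, the log2 fold change on SC-435 was -0.56 for *Cd8a* (edgeR adjusted p = 0.592, standard error 0.65) and -0.95 for *Nkg7* (edgeR adjusted p = 0.238, standard error 0.53). Without replicate 4, it was -1.83 for *Cd8a* (adjusted p = 0.0302 from edgeR) and -1.82 for *Nkg7* (adjusted p = 0.0201 from edgeR). *Lck* was -0.81 (adjusted p = 0.18 from edgeR), and -1.02 with an adjusted p of 0.0497 from edgeR when KO chow replicate 4 was left out. *Cd3e* had a log2 fold change of 0.01 (standard error 0.36), which was negative with library size alone, as were the other 5 T and NK genes.

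Other leukocyte genes moved down with SC-435 in the same female KO mice. All 8 pan-leukocyte genes fell, led by *Ptprc* (-1.25), *Laptm5* (-1.03) and *Rac2* (-1.11), and 12 of 13 macrophage and monocyte genes fell, led by *Lyz2* (-1.52), *Cd68* (-1.15) and *Cd14* (-2.20). Of the 17 other B cell genes tested, 7 fell, led by *Blnk* (-1.38), *Cd72* (-1.17) and *Ly6d* (-4.18). Antibody genes were among those that fell: *Igkc*, the kappa light chain constant region (-1.03), *Igha*, the IgA heavy chain (-2.17), and *Jchain*, which joins secreted IgA and IgM (-1.16). The other plasma cell genes tested were not called. Of these *Mzb1* was positive (0.86, adjusted p = 0.0958 from edgeR), and *Prdm1*, *Irf4* and *Ighg2b* were negative. The IgM heavy chain gene *Ighm* was not called either (-0.30, adjusted p = 0.604 from edgeR). Of 21 other T cell genes tested, *Il7r* fell (-1.92) and *Tcf7*, a transcription factor of naive T cells, rose (0.86), and of 11 NK and cytotoxicity genes *Klrd1* (-1.31) and *Ncr1* (-1.49) fell. Over all genes tested 9.23% fell and 8.56% rose, so the T cell list did not share in a wider decrease by calls. *Tcf7* had a median of 209 counts over all mice, beside 13 for *Cd3e* and 14.5 for *Cd3g*. Which cells its reads came from was not tested. The part of the macrophage decrease in the lymphocyte values was not tested.

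SC-435 in male KO mice was followed by a rise of *Ighm* alone among the 10 genes. The 4 mice on SC-435 had 746, 297, 1192 and 1114 *Ighm* counts and the 4 on chow had 193, 234, 419 and 370. The ranges overlapped through SC-435 replicate 2. The means were 21.1 ± 10.8 CPM on SC-435 and 6.21 ± 1.76 CPM on chow (SD, n = 4), with a log2 fold change of 1.77 (edgeR adjusted p = 0.0209 over 15984 genes, standard error 0.40). It was the 1 of 4 B cell genes called and 0 of 6 T and NK genes were called, beside 17.2% of all genes changed and 8.8% higher. Without SC-435 replicate 3 the adjusted p was 0.0564, and without replicate 4 it was 0.0640, both from edgeR. The median log2 fold change was 0.11 over the T and NK genes, 0.03 over the B cell genes and -0.03 over all genes. With library size alone these were -0.14, -0.19 and -0.23, *Ighm* was still called, and the split over all genes went from 1407 higher and 1337 lower to 755 higher and 2320 lower.

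The other B lineage genes did not rise beside *Ighm* in these males. *Cd79a* (log2 fold change 0.38), *Cd79b* (-0.50) and *Ms4a1* (-0.31) had adjusted p of at least 0.346 from edgeR. *Cd79b* had 20, 32, 12 and 21 counts on SC-435 and 26, 26, 30 and 66 on chow. *Igkc* had 105, 85, 57 and 103 counts on SC-435 and 106, 89, 88 and 181 on chow, and *Jchain* had 38, 38, 31 and 52 against 49, 40, 41 and 74. *Ighd*, the IgD heavy chain that mature B cells make beside IgM, had a log2 fold change of -0.78 (adjusted p = 0.126 from edgeR). Reads on the 218 immunoglobulin variable segments of the table summed to 43 to 89 per male KO mouse on SC-435 and to 82 to 218 on chow. Of 15 other B cell genes tested, 0 rose and *Blnk* (-1.70), *Cd72* (-1.38) and *Ly6d* (-4.33) fell. Of 6 plasma cell genes tested, 0 were called. Among 19 other T cell genes tested, *Zap70*, a T cell receptor kinase, was the 1 called (1.497). *Zap70* had a median of 519 counts over all mice, beside 13 for *Cd3e*, and which cells its reads came from was not tested. Of 5 genes of red cells tested, *Alas2* (0.67) and *Hbb-bs* (0.88) rose in the same comparison, 1 of them with library size alone. Summed over the list, the red cell genes were between 153 and 161 CPM on SC-435 and between 76.2 and 123 CPM on chow. *Alas2* had a median of 2249.5 counts over the 32 mice, beside 375 for *Hbb-bs*, so it weighs heavily in these sums. Among the 4 mice on SC-435 the *Ighm* level ran from 7.22 to 31.5 CPM. The part of blood in the *Ighm* difference was not tested.

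**Figure D3:**
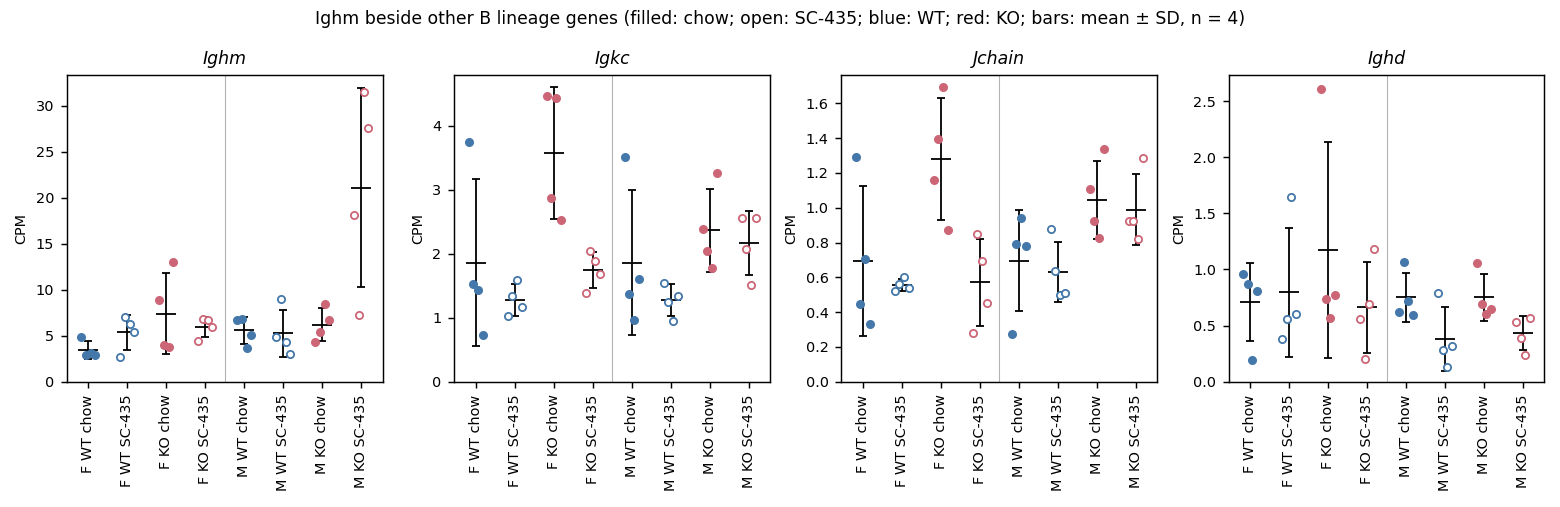
CPM (vertical axis, linear) of *Ighm* and of 3 other B lineage genes by group, 1 point per mouse, with bars for the mean ± SD (n = 4) cut at 0. In male KO mice on SC-435 *Ighm* averaged 21.1 CPM against 6.21 CPM on chow, while *Igkc* averaged 2.17 against 2.37 CPM and *Jchain* 0.989 against 1.05 CPM.

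The difference between the sexes in the *Ighm* response was -2.09 on the log2 scale (female minus male, standard error 0.60), with an adjusted p of 0.162 from edgeR and 0.0233 from DESeq2 on the same 16 KO mice. In female KO mice, *Ighm* counts were 190, 299, 260 and 261 on SC-435 and 460, 204, 189 and 536 on chow. The same interaction was -1.74 for *Cd79a* (edgeR adjusted p = 0.183, standard error 0.53). Of all genes, 0.211% were called for this interaction by edgeR, and 0 of the 10 genes.

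In WT mice, SC-435 had no called effect on the genes. In females 9 genes were tested and 0 called, with 4.28% of all genes called, and in males 7 were tested and 0 called, with 0.0394% of all genes called. DESeq2 also called 0 of them in either sex, and edgeR called 0 in males without WT chow replicate 1. At an unadjusted p under 0.05, edgeR counted *Ighm* in females (log2 fold change 0.64, standard error 0.28) and 0 genes in males. *Cd8a*, with at most 11 counts in any WT mouse on SC-435, was below the filter in both sexes. The interaction of genotype and SC-435 gave 0 calls in females (2.64% of all genes) and 0 in males (0.0906% of all genes). The largest estimates were -1.58 for *Cd79a* in females (edgeR adjusted p = 0.142, standard error 0.58) and 1.82 for *Ighm* in males (edgeR adjusted p = 0.201, standard error 0.56).

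On SC-435, KO and WT mice gave 0 calls among these genes in females (9 tested, 10.9% of all genes called) and 0 in males (9 tested, 0.0324% of all genes called). *Cd79a* came nearest in females. The KO mice had 13, 15, 14 and 24 counts and the WT mice 22, 32, 36 and 39, an overlap through 1 mouse of each group, and the log2 fold change was -0.96 (adjusted p = 0.0572 from edgeR and 0.0442 from DESeq2). In males, *Ighm* was at 746, 297, 1192 and 1114 counts in KO and 166, 380, 163 and 114 in WT mice, an overlap through replicate 2 of each. That log2 fold change of 1.99 (standard error 0.45) had an adjusted p of 0.239 from edgeR and 0.0235 from DESeq2.

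*Cd4* was lower in female than in male WT mice on chow. On chow, female WT mice had 26, 24, 12 and 15 counts and male WT mice 118, 74, 54 and 97, with no overlap. The means were 0.471 ± 0.178 CPM in females and 2.62 ± 1.41 CPM in males (SD, n = 4). The log2 fold change, female over male, was -2.46 (edgeR adjusted p = 0.0308 over 15525 genes, standard error 0.45), and *Cd4* was the 1 gene called of 5 T and NK genes tested, with 0 of 4 B cell genes, beside 1.49% of all genes (0.747% lower). Leaving out male WT replicate 1 gave -2.06 (adjusted p = 0.00655 from edgeR), but leaving out any 1 of 6 of the other libraries raised the adjusted p to between 0.0656 and 0.115. The summed red cell genes were also higher in these males, at 130 to 677 CPM against 22.6 to 107 CPM in the females. Among them *Alas2* was lower in females (-3.25, adjusted p = 0.00237 from edgeR). The hemoglobin genes, between -1.37 and -1.08, were not called (adjusted p of at least 0.727 from edgeR). The highest *Cd4* level of all 32 mice, 4.60 CPM, was in the male with the sum of 677 CPM. In KO mice on chow, the hemoglobin genes were positive, 1.71 to 2.05 and uncalled, where *Cd4* was -1.08. On SC-435 the hemoglobin genes were 0.20 to 0.43 in WT and -0.22 to 0.34 in KO mice, also uncalled. *Alas2* was lower in females in all of these comparisons. The part of blood in the *Cd4* difference was not tested.

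The lower *Cd4* of females was seen in each genotype and diet. In KO mice on chow, the counts were 56, 52, 35 and 44 in females and 66, 93, 99 and 146 in males, with a log2 fold change of -1.08 (edgeR adjusted p = 0.0531 and 0.00155 from DESeq2, standard error 0.24). Of all genes, 2.73% were called there by edgeR and 0 of the 10 members. The comparisons on SC-435 were added after these levels were seen. In WT mice on SC-435, *Cd4* had 30, 29, 18 and 25 counts in females and 57, 75, 42 and 64 in males, with a log2 fold change of -1.37 (edgeR adjusted p = 0.0107, standard error 0.24). In KO mice on SC-435, the log2 fold change was -0.81 (edgeR adjusted p = 0.0423, standard error 0.26), with 29 to 45 counts in females and 38 to 80 in males. *Cd4* was the 1 T and NK gene called in each of those comparisons, where 7.05% (WT, 3.85% lower and 3.2% higher) and 26.3% (KO, 12.8% lower) of all genes were called. *Cd79a* was higher in female than male WT mice on SC-435 (1.24, adjusted p = 0.0388 from edgeR), and *Ighm* was lower in female than male KO mice on SC-435 (-1.82, adjusted p = 0.00406 from edgeR). With each mouse left out in turn, *Cd4* in WT mice (-1.52 to -1.25) and *Ighm* in KO mice (-2.11 to -1.56) were called all 8 times. *Cd79a* in WT mice stayed called in 2 of 8, without female replicate 1 or male replicate 4, and had adjusted p-values up to 0.108 from edgeR otherwise. *Cd4* in KO mice stayed called in 2 of 8, without female or male replicate 3, and had adjusted p-values up to 0.114 from edgeR otherwise. With library size alone, 863 genes were higher and 367 lower in female WT mice, beside 497 and 599, and 2767 and 1208 in female KO mice, beside 2138 and 2026, and *Cd4* in KO mice was then not called (-0.73, adjusted p = 0.0793 from edgeR).

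The other T and NK genes had no sex difference that edgeR called. In WT mice on chow *Cd3e*, *Cd3g*, *Lck* and *Nkg7* had female over male log2 fold changes of 0.48, 0.04, 0.35 and -0.17, none with an adjusted p under 0.777 from edgeR. In KO mice on chow, the 5 other T and NK genes were all positive, between 0.77 for *Cd3e* and 1.38 for *Nkg7*, while *Cd4* was negative, and none of the 5 was called by edgeR. DESeq2 called *Nkg7* (1.38, adjusted p = 0.0357) and *Cd79a* (1.52, adjusted p = 0.0234) higher in female KO mice on chow.

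Each mouse was also placed by a T and NK score and a B score, the mean log2 CPM of the genes set against the chow-fed WT mice of that sex. *Ighm* was left out of the B score, a choice made after its values were seen. In female KO mice on chow, the T and NK score was 1.49, 1.10, 1.09 and 0.37 in replicates 1 to 4, and the B score was 1.45, -0.05, -0.16 and 0.39. By these scores replicates 2 and 3 had raised T and NK genes with B cell genes at the WT level, replicate 1 had both raised, and replicate 4 neither by much. With *Ighm* kept, the B score was 1.43, 0.02, -0.08 and 0.78, so replicate 4 then stood above its T and NK score. The difference of the scores averaged 0.60 ± 0.69 in female KO mice on chow and 0.54 ± 0.39 in female KO mice on SC-435 (SD, n = 4). In male KO mice it averaged 0.24 ± 0.39 on chow and 0.48 ± 0.24 on SC-435 (SD, n = 4). In WT mice on chow, the difference was 0 by construction, with an SD of 0.61 in females and 0.83 in males. With *Ighm* kept in the B score, the difference averaged 0.47 ± 0.77 in female KO mice on chow and 0.31 ± 0.48 in female KO mice on SC-435 (SD, n = 4). In male KO mice it then averaged 0.18 ± 0.30 on chow and -0.02 ± 0.30 on SC-435 (SD, n = 4), so the sign in males on SC-435 turned on *Ighm*.

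**Figure D4:**
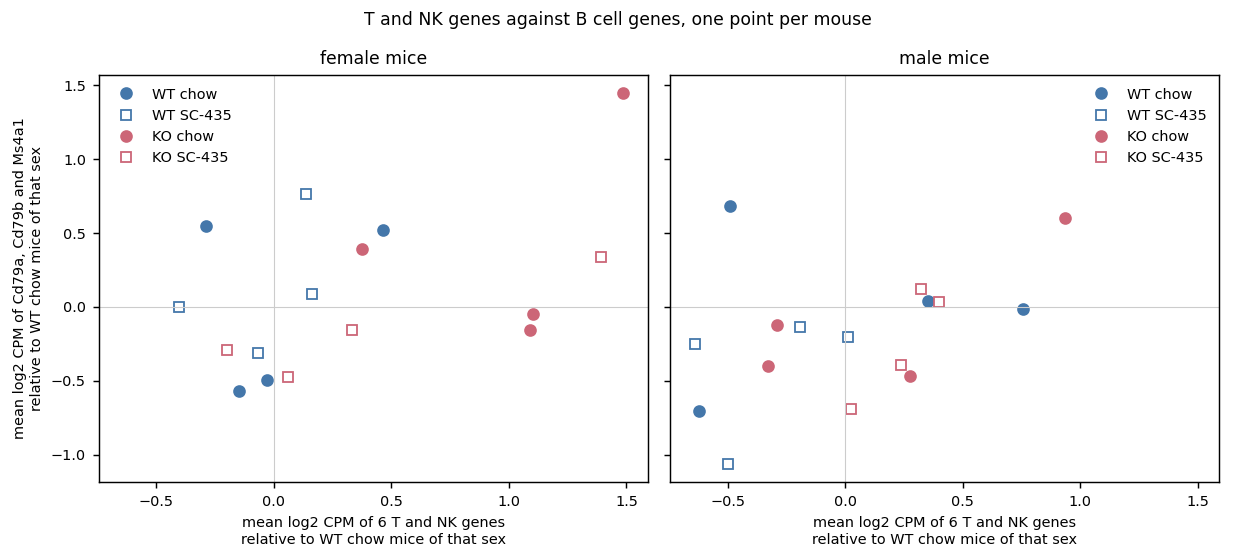
Mean log2 CPM of the 6 T and NK genes (horizontal axis) and of *Cd79a*, *Cd79b* and *Ms4a1* (vertical axis) in each mouse, against the mean of chow-fed WT mice of that sex, females left and males right. In females, 3 of the 4 KO mice on chow (filled red) and 1 KO mouse on SC-435 (open red) lie to the right of every WT mouse, and 1 of them is also highest on the vertical axis.

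The genes were also compared with each other within groups. After subtracting each group's mean, the median Pearson correlation of log2 CPM over the 32 mice was 0.41 among the 15 pairs of T and NK genes, 0.29 among the 6 pairs of B cell genes, and 0.23 among the 24 mixed pairs. The pairs ran from -0.05 to 0.61 among T and NK genes, from 0.25 to 0.81 among B cell genes and from -0.04 to 0.43 among mixed pairs. With the other T and NK genes, *Cd4* ran from -0.05 (*Cd3g*) and 0.09 (*Cd3e*) to 0.59 (*Nkg7*). The points share libraries and low counts, so these are descriptions. Of 14483 genes ranked the same way, those most like the mean of the T and NK genes were *Cd74* (0.89), *H2-Eb1* (0.87), *H2-Aa* (0.87), *Trbc2* (0.85) and *H2-Ab1* (0.85). *Trbc2* is a T cell receptor constant region, nearly identical in sequence to *Trbc1*, and the other 4 belong to antigen presentation by class II molecules. Those most like the mean of the B cell genes included *Spib* (0.64), *Ighd* (0.62), *H2-Q5* (0.61) and *H2-Ob* (0.59). *Spib*, *Ighd* and *H2-Ob* are B cell genes by common knowledge.

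**Figure D5:**
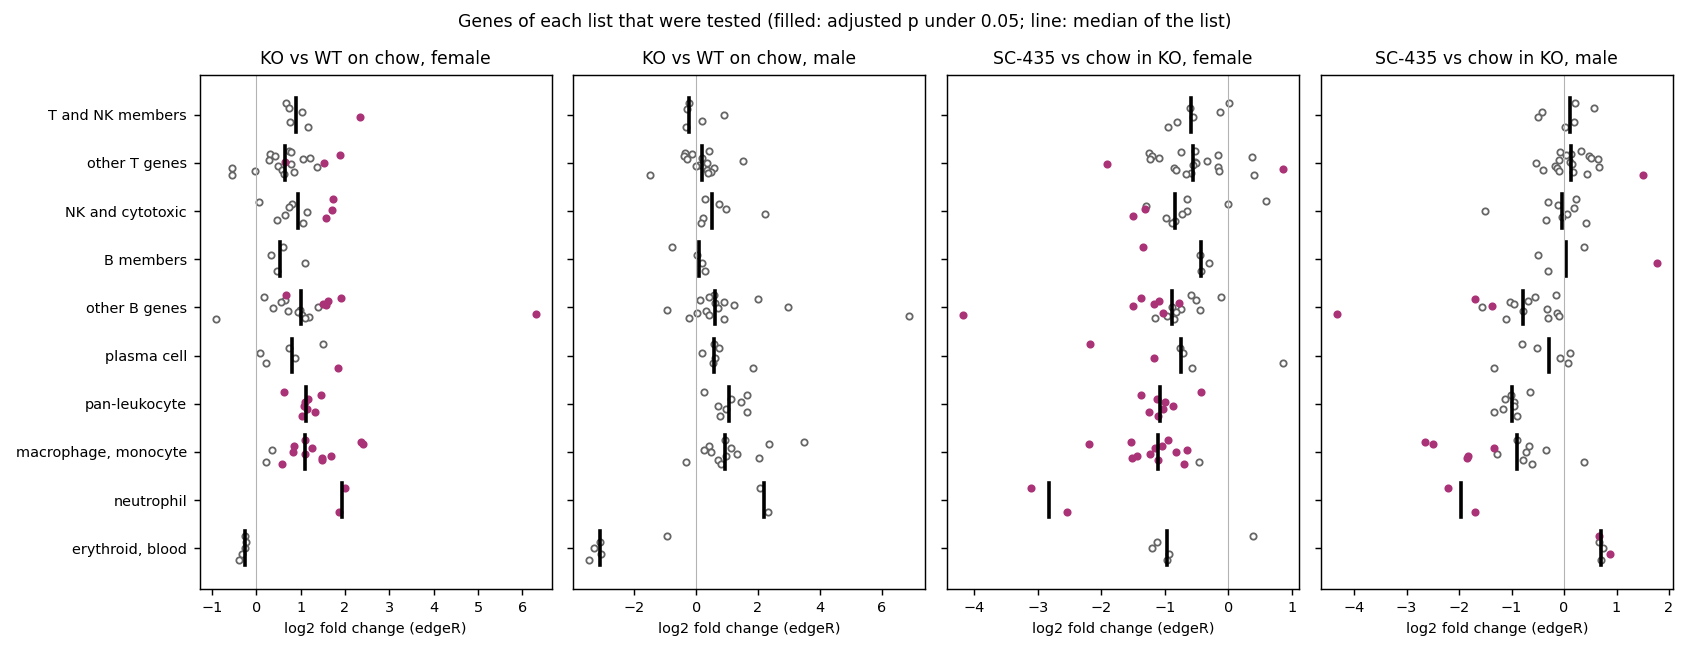
Log2 fold change (horizontal axis, edgeR) of each tested gene of 10 lists in 4 comparisons, filled where the adjusted p was under 0.05, with a line at the median of the list. In females the lines of pan-leukocyte and macrophage genes lie near 1.1 for KO over WT and near -1.1 for SC-435 over chow, and those of the T and NK genes at 0.90 and -0.58.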

How the data were processed

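Liver RNA of 32 mice was selected for polyadenylated transcripts and sequenced, and the authors deposited 1 table with raw read counts per gene, FPKM, gene length and other gene annotation, and the results of their own comparisons. The submitters' processing notes name HISAT2 2.0.5, featureCounts 1.5.0-p3, DESeq2 1.20.0 and build mm10. The FPKM the authors deposited, their log2 fold changes, p-values and mean normalized signal per group were not used, and the deposited gene length, one of the other columns, served only for CPM per kb. Libraries held 36476021 to 44771350 counts on 54532 genes.

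Counts were analysed with edgeR 4.0.16 in R 4.3.3, with summaries in Python 3.11.15. In each comparison of 2 groups (8 mice), genes were filtered with filterByExpr (minimum count 10), scaled with TMM factors and tested with the quasi-likelihood F test, with Benjamini-Hochberg adjustment over all genes tested. Calls needed an adjusted p below 0.05. Interactions used 16 mice. The standard error is the size of the log2 fold change divided by the square root of F. With 4 mice against 4, an exact permutation test of 1 value cannot go below 0.0286. Levels are CPM with TMM factors over all 32 mice, and the floor of 3 counts covers counting error only. Mice are separate animals by the labels.

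All 10 genes are described. From each further list, the 3 called genes with the smallest p were named in a comparison. For likeness, genes averaging 20 counts or more were ranked by Pearson correlation of log2 CPM (prior count 2) after subtracting group means, and 1 of the genes so ranked is not reported here. Genes given as count or level series outside that rule (*Igkc*, *Jchain*, *Ighd*, *Igha*) were chosen after their values were seen. The members and lists were chosen with earlier results of these data known.

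Alternatives were median-of-ratios factors, library size alone, DESeq2 1.42.0, no filter, a mean count minimum of 50, the replicate number as a block, a log2 fold change beyond 1, 1 fit over all 8 groups, and leaving out each mouse. Sex comparisons on SC-435, with the same alternatives, were chosen later, with the data in view. The fits were tested on simulated data. All 48 pairs of mice within a group differed by more than counting noise (chi-square of at least 18.5 per gene). Promoters were read from a RefSeq table of GRCm38.p6.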

Additional observations from a re-analysis of the deposited data

Results flagged for a closer look

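In each group of 4 mice, the highest and lowest CPM of each gene were compared with the spread of the group by Dixon's test. Of 80 combinations of gene and group, 7 held a mouse that stood apart, and chance gives about 1 in 20. Of the 7 values, 4 were in KO groups on chow. Female KO replicate 1 on chow had 1.66 CPM of *Cd79a* (0.726 to 0.825 in the other 3) and 1.95 CPM of *Cd79b* (0.645 to 0.825). Male KO replicate 4 on chow had 1.19 CPM of *Cd79b* (0.587 to 0.605) and 0.758 CPM of *Cd3e* (0.161 to 0.203). Female KO replicate 4 on SC-435 had 1.59 CPM of *Cd8a* (0.155 to 0.327). Female WT replicate 1 on chow had 4.86 CPM of *Ighm* (2.90 to 3.13). The 1 low value was male WT replicate 3 on SC-435, with 1.11 CPM of *Cd4* against 1.66 to 1.77 CPM in the others.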

How the results depend on the processing

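In KO and WT females on chow, the number of T and NK genes called was 1 by edgeR, 3 with library size alone and with DESeq2, 2 with all 8 groups in 1 fit and 0 with a mean count minimum of 50, which *Cd8a* does not pass. The number of B cell genes called there was 0 by edgeR and 1 with library size alone, DESeq2 or no filter. With SC-435 in female KO mice, the 1 B cell gene called became 0 with a mean count minimum of 50 and with the replicate number as a block, where *Cd79a* was -1.28 (adjusted p = 0.0676 from edgeR). DESeq2 raised the B cell genes called from 0 to 1 for KO and WT mice on SC-435 in females and in males, for female and male KO mice on chow, and for the sex by SC-435 interaction. For female and male KO mice on chow, the T and NK genes called went from 0 to 2 with DESeq2 and to 1 with all 8 groups in 1 fit, as did the B cell genes from 0 to 1 in that fit. Leaving out 1 mouse gave 1 to 3 T and NK genes in KO and WT females on chow, the higher number without WT replicate 1 or KO replicate 4. With SC-435 in female KO mice it gave 0 to 2 T and NK genes and 0 to 1 B cell genes. The ranges were 0 to 1 for B cell genes with SC-435 in male KO mice and for KO and WT females on SC-435 (1 without KO replicate 4). They were 0 to 1 for T and NK genes between the sexes in WT mice on chow and in KO mice on chow (1 without male replicate 4), and 0 to 0 in the other planned comparisons. For the sex comparisons on SC-435, the same alternatives were added after the calls were seen. The 1 B cell gene called there in WT mice became 0 with no filter, a mean count minimum of 50, the block or all 8 groups in 1 fit, and the 1 T and NK gene in KO mice became 0 with a log2 fold change beyond 1, library size alone, the block or all 8 groups in 1 fit. Both ranged from 0 to 1 with a mouse left out. Leaving out mice, *Cd8a* in KO and WT females ranged from 2.15 to 2.72 and was called each time (adjusted p 0.00133 to 0.0296 from edgeR), *Cd79a* with SC-435 in female KO mice ranged from -1.55 to -0.96 and lost its call in 4 of 8 fits, *Ighm* with SC-435 in male KO mice from 1.51 to 2.06 and lost it in 2 of 8, and *Cd4* between the sexes in WT mice on chow from -2.68 to -2.06 and lost it in 6 of 8. No call had the opposite sign under any of these alternatives. The cause of the other changes was not tested. Of 222 counts of called genes under the other settings, most of them 0, 206 stayed within 1.5 times the reported count, and of 288 with a mouse left out 270 did. For the added comparisons 22 of 30 and 20 of 32 did. The labels give the replicate numbers no meaning. In no planned comparison were the correlations of same-numbered mice (-0.29 to 0.38) all over 0.1, a limit that cannot exclude a pairing. Between 0 and 7 of the 8 mice of a comparison correlated best with the mouse of their own number. The 7 were in KO and WT males on chow, where the correlations were 0.025 to 0.166. For the sexes in WT mice on chow, 3 of 4 correlations were over 0.1. Whether the numbers pair mice there is not known. The block changed no other call among the 10 genes than those named above, but over all genes it moved the calls from 2744 to 1329 with SC-435 in male KO mice, from 2906 to 1902 in female KO mice, from 172 to 17 for KO and WT males on chow from 232 to 134 for the sexes in WT mice on chow and from 1096 to 674 for the sexes in WT mice on SC-435. DESeq2 gave 4220 and 1081 where edgeR gave 2744 and 172, and all 8 groups in 1 fit gave 1398 and 3834 where edgeR gave 2906 (SC-435 in female KO mice) and 172. For the sexes on SC-435, all 8 groups in 1 fit gave 468 for 1096 in WT and 1018 for 4164 in KO mice, and DESeq2 gave 2000 in WT mice. Low counts limit these genes: a gene at 10 counts per mouse has a wide spread, so a p over the threshold does not show that groups were alike. Genes below the filter were estimated without it, such as *Cd8a* for KO over WT on SC-435 (adjusted p = 0.109 in females and 0.575 in males, from edgeR).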

Other observations

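Other immune and bile duct genes showed where the lymphocyte genes stood among the changes of the same livers. Dendritic cell genes rose with the pan-leukocyte genes in female KO mice on chow, with 5 of 9 tested genes higher than in WT. *Siglech*, a receptor of plasmacytoid dendritic cells, was 1.61, *Flt3*, a growth factor receptor of dendritic cell precursors, 2.11, and *Ccr9*, a gut-homing chemokine receptor also found on plasmacytoid cells, 1.43 on the log2 scale. With SC-435 in female KO mice 3 of 9 fell, *Klk1*, a kallikrein gene (-2.45), *Siglech* (-1.26) and *Ccr9* (-1.25). *S100a8* and *S100a9*, which neutrophils and monocytes make in large amounts, were the 2 of 9 neutrophil genes that passed the filter. They rose by 2.01 and 1.87 in female KO mice on chow, and with SC-435 they fell by 3.11 and 2.55 in females and by 2.22 and 1.70 in males.

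Bile duct genes rose in both sexes. In females 5 of 7 were higher in KO than in WT mice on chow, led by *Cldn4* (3.16), *Spp1* (2.40) and *Muc1* (1.91), and in males 3 of 7 were higher, *Sox9* (1.88), *Epcam* (2.40) and *Spp1* (4.48). With SC-435, 3 of 7 fell in female KO mice and 6 of 7 in male KO mice. On SC-435, 6 of 6 bile duct genes tested were still higher in female KO than WT mice. Of the 9 lymphocyte genes tested there, 0 were called, beside 10.9% of all genes. In males on SC-435, no bile duct gene tested was called between KO and WT mice (adjusted p of at least 0.184 from edgeR), where 0.0324% of all genes were called. Their log2 fold changes were all positive, from 0.14 (*Sox9*) to 0.76 (*Epcam*).

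Receptor gene segments gave a coarse view of the same cells. Reads on the 8 T cell receptor constant genes summed to between 79 and 216 counts in female KO mice on chow and to between 62 and 118 in female WT mice on chow, an overlap of ranges. Reads on the 218 immunoglobulin variable segments summed to between 110 and 265 counts in female KO mice on chow, to between 55 and 111 in WT mice on chow and to between 47 and 89 in female KO mice on SC-435. These sums were not tested, and near-identical segments can share reads.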
